A study of Homo sapiens with 8 samples.

Results

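The genes described here are the molecular chaperones named as heat shock proteins, the DNAJ co-chaperones and the cytosolic chaperonin CCT, together with the BAG co-chaperones, heat shock factors HSF1 and HSF2 and the adaptor STIP1. They were taken by symbol from the deposited table (symbols that begin with HSP and a family letter or with HSP90, DNAJA, DNAJB, DNAJC or CCT2 to CCT8, the genes BAG1 to BAG6, TCP1, HSF1, HSF2 and STIP1, without HSPBAP1 and antisense rows). The rule found 82 of the 14526 genes measured, and it used no expression value. RNA was sequenced from 4 control replicates and 4 replicates given sodium benzoate (SB) at 10 mM for 24 h. SB is a food preservative, and the study asked how gene expression in these cells relates to a benzoyl mark on histone lysines. Both groups carried the cell line label HepG2, a line from a human liver carcinoma, and were grown in DMEM with 10% FBS. No genetic change was listed for either group. What the controls received in place of SB is not given in the sources used here.

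Chaperones bind polypeptides that are not yet folded or have come unfolded. HSP70 proteins do so in a cycle driven by ATP, in which J domain proteins (the DNAJ families) deliver clients and stimulate ATP hydrolysis, and nucleotide exchange factors (HSP110 and BAG proteins) release them. HSP90 takes over partly folded clients such as kinases and steroid receptors with the help of adaptors. The chaperonins enclose a client in a barrel: CCT in the cytosol, which folds actin and tubulin, and HSPD1 with its lid HSPE1 in mitochondria. Under protein damage, heat shock factor 1 is known to switch on a set of these genes, among them HSPA1A, HSPA1B, DNAJB1 and BAG3.

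The libraries held between 36989758 and 44877860 reads on genes. Control replicate 1 stood apart from its group. Its read counts differed from those of the other controls by a chi-square over genes of 33.4 to 38.4 per degree of freedom, against 1.52 to 3.80 for the other pairs within a group and 68.5 to 113 between the groups, so counts are also given without it. Of 21 markers of hepatocytes or of HepG2, 19 have no row in the table, ALB, AFP and APOA1 among them. In the controls, TF, the gene of transferrin, had a level of 0.192 ± 0.0188 RPKM (SD over 4 replicates). The table therefore does not show the marker profile of the labelled line, and levels below refer to the cells as they were sequenced. Of the markers of other cell types, 3 of 6 fibroblast, 3 of 5 leukocyte and 1 of 4 endothelial genes have a row, and DCN, PTPRC and PECAM1 do not. Their summed levels were 6.13 to 8.32 RPKM in the controls and 6.07 to 6.29 RPKM in the SB-treated replicates for fibroblast markers, 3.28 to 3.77 and 3.35 to 4.14 RPKM for leukocyte markers, and 0.268 to 0.348 and 0.113 to 0.185 RPKM for the endothelial marker. The part of these levels in the results was not tested.

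The chaperone genes moved in both directions upon SB treatment. Of the 82 genes, 21 rose (25.6%) and 36 fell (43.9%), and 25 did not pass the test (limma on log2(RPKM + 1), adjusted p below 0.05). RPKM is the read count scaled to gene length and library size, and the pseudocount of 1 makes the log2 fold changes of genes at low RPKM too small. Over all genes tested, 33.0% were called higher and 32.6% lower, so that 65.6% were called in either direction and a call by itself is common in these data. The median log2 fold change was -0.08 for the chaperone genes and 0.00 for all genes. By family, 5 of 9 genes of the HSP70 family rose and 2 fell, 5 of 10 of the DNAJB family rose, and 7 of 27 of the DNAJC family rose and 11 fell. The 8 genes of the CCT ring, the 3 of the HSP110 family and the pair HSPD1 and HSPE1 were all called lower, and the other 23 falls lay elsewhere, those of the HSP70 and DNAJC families included. The authors kept genes above 1 CPM (read counts scaled to library size) in at least 2 libraries. By the recovered reads 78 of the 82 genes met this in both groups, while DNAJB13, DNAJC5G, HSPA12B and HSP90AB4P met it only through the SB-treated group. The filter favours a higher SB-treated value in a gene kept in that way, although HSPA12B and HSP90AB4P were not called. The counts that hold DNAJB13 and DNAJC5G, both called higher, are therefore not read as support.

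The split depended on how the libraries were scaled. The table uses TMM factors, with library sizes of 0.957 to 0.969 times the reads in the controls and 1.03 to 1.04 times in the SB-treated replicates. Without them, 28 chaperone genes were called higher (34.1%) and 24 lower (29.3%), against 43.0% and 23.1% of all genes. The median log2 ratio of all genes then moved from 0.00 to 0.11. All 21 rises and 24 of the 36 falls kept their call. Without control replicate 1, 28 were called higher and 40 lower, against 37.6% and 37.9% of all genes (75.5% in either direction), and all 57 calls were kept. In bulk RNA, fewer cells that express a gene and less RNA per cell cannot be told apart.

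**Figure D1:**
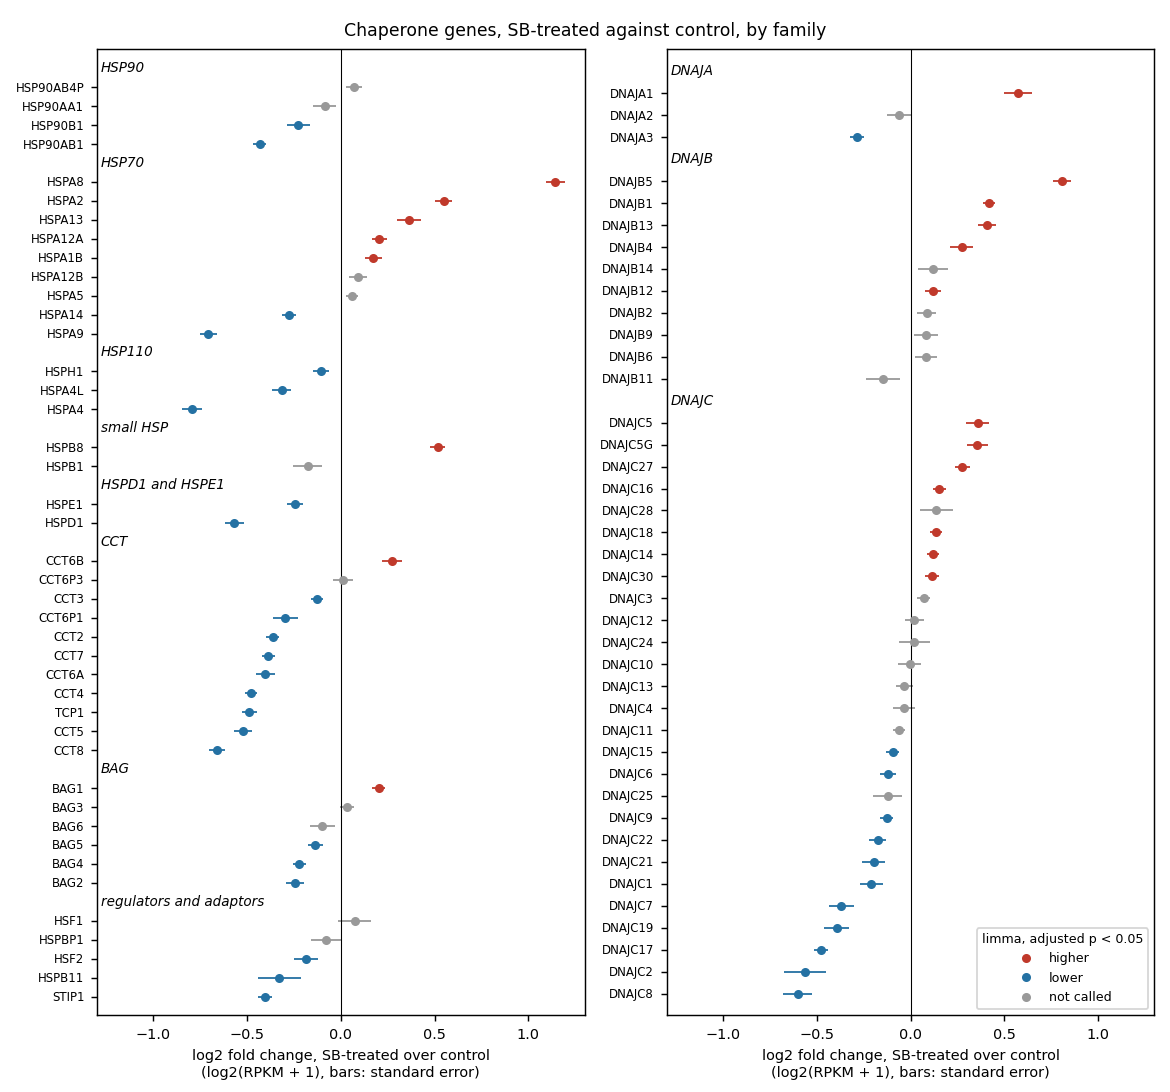
Log2 fold change on the log2(RPKM + 1) scale, SB-treated over control (x axis), for each of the 82 chaperone genes by family (y axis), with the standard error as a bar (n = 4 and 4 libraries). The 8 CCT ring genes lie between -0.66 and -0.13, while HSPA8, at 1.14, is the gene farthest to the right.

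A change of at least 0.5 on the log2 scale was called for 12 chaperone genes. HSPA8, DNAJB5, DNAJA1, HSPA2 and HSPB8 rose by that much, and HSPA4, HSPA9, CCT8, DNAJC8, HSPD1, DNAJC2 and CCT5 fell by that much. Among all genes, 5.12% rose and 5.45% fell to this extent. The values in the 2 groups did not overlap for 22 genes with higher and 35 genes with lower SB-treated values, against 31.0% and 30.5% of all genes. For each of these the exact permutation test of 4 against 4 gave p = 0.0286, two-sided, the smallest it can give.

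HSPA8 (chr11:123057489-123063230, hg38, minus strand) encodes HSC70, the HSP70 protein present in all cells that also strips clathrin from coated vesicles. Its controls measured 126, 109, 109 and 109 RPKM and its SB-treated replicates 255.2, 246, 247 and 258 RPKM. Every SB-treated replicate lay far above every control, although control replicate 1 was the highest control. From 113 ± 8.63 RPKM the mean rose 2.22-fold to 251 ± 5.99 RPKM (SD over 4 replicates each). On the log2 scale HSPA8 rose by 1.14 (SE 0.052, limma adjusted p = 3.19e-07). Between 9554 and 29469 reads per library lay behind these values.

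DNAJA1 (chr9:33025273-33039907, plus strand), a J domain partner of HSC70 in the cytosol, moved the same way. The controls measured 76.6, 61.4, 61.4 and 57.9 RPKM and the SB-treated replicates 97.4, 94.3, 94.8 and 96.0 RPKM. The groups did not overlap, and again control replicate 1 was the control nearest to the treated values. The log2 fold change was 0.57 (SE 0.076, adjusted p = 0.000119), and 0.66 without control replicate 1. DNAJB1, the J protein that works with inducible HSP70 in the heat shock response, measured 13.2, 13.2, 13.5 and 12.9 RPKM in the controls and 17.4, 18.1, 18.1 and 18.1 RPKM after SB. Its replicates were close together in both groups, and it rose by a log2 fold change of 0.42 (SE 0.032, adjusted p = 4.22e-06).

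**Figure D2:**
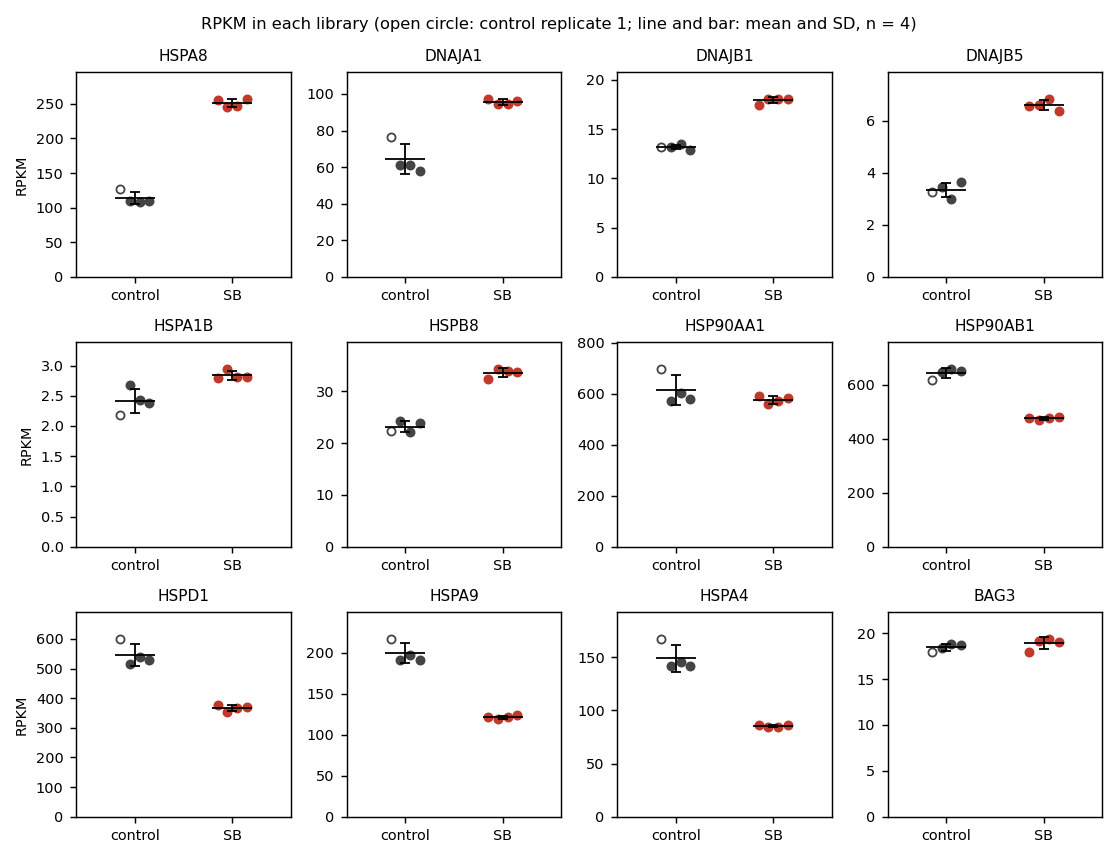
RPKM (y axis, from 0) in each library of both groups (x axis) for 12 chaperone genes, with the mean and SD of each group (n = 4) and control replicate 1 as an open circle. HSPA8, DNAJA1, DNAJB1, DNAJB5, HSPA1B and HSPB8 lie higher after SB, HSP90AB1, HSPD1, HSPA9 and HSPA4 lie lower, and HSP90AA1 and BAG3 overlap between the groups.

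The classical targets of heat shock factor 1 did not move as one. Of 13 measured targets, 4 rose (HSPA8, DNAJA1, DNAJB1 and HSPA1B), 6 fell (HSP90AB1, HSPD1, HSPE1, HSPA4L, HSPH1 and STIP1) and 3 did not pass the test (HSP90AA1, HSPB1 and BAG3), with a median log2 fold change of -0.11. Over all genes, 33.0% were called higher and 32.6% lower, so a split by itself is not particular to these targets. HSPA8, HSP90AB1, HSPD1, STIP1, HSP90AA1 and HSPB1 had a mean of at least 100 RPKM, where 6.41% of all genes were called higher and 77.5% lower. HSPA1B, the inducible HSP70, measured 2.17, 2.67, 2.43 and 2.37 RPKM in the controls and 2.79, 2.95, 2.82 and 2.81 RPKM after SB. All SB-treated values were above all controls, but by little, and the log2 fold change was 0.17 (SE 0.046, adjusted p = 0.00814). By voom on the recovered reads it was 0.24 (adjusted p = 0.00472). HSPA1B was scaled by 5.01 times its annotated exon length, so its RPKM is in doubt. At so low an RPKM the pseudocount of 1 makes the log2 fold change too small. HSPA1A, which is nearly identical in sequence to HSPA1B, has no row in the table. How reads that fit both genes were counted is not given in the sources used here. BAG3, an exchange factor for HSP70 that is strongly induced by proteotoxic stress, measured 17.96, 18.4, 18.8 and 18.7 RPKM in the controls and 17.99, 19.2, 19.4 and 19.0 RPKM after SB. Its groups overlapped, with a log2 fold change of 0.03 (SE 0.036, adjusted p = 0.436), although it was called higher without TMM factors (0.13). HSPB1, a small heat shock protein that holds unfolded clients, measured 95.3, 122, 126 and 113 RPKM in the controls and 94.8, 104, 101 and 101 RPKM after SB. Control replicate 1 lay among the SB-treated values. HSPB1 had a log2 fold change of -0.18 (adjusted p = 0.0724), which became -0.26 and was called lower (adjusted p = 0.00049) without that library.

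Of the heat shock factors, HSF1 did not pass the test, HSF2 was called lower and HSF4 was called higher. HSF1 measured 32.2, 42.4, 42.2 and 41.9 RPKM in the controls and 38.1, 44.6, 42.2 and 41.4 RPKM after SB, so the groups overlapped and control replicate 1 was the lowest library. Its log2 fold change was 0.07 (adjusted p = 0.475), and -0.02 without that replicate. HSF2, a related factor, fell by 0.19 on the log2 scale (adjusted p = 0.0293), from 35.6 ± 3.57 to 31.1 ± 1.31 RPKM (SD, n = 4). Without control replicate 1 its log2 fold change was -0.12. It was no longer called without TMM factors (-0.08, adjusted p = 0.254), nor without SB-treated replicate 2 (adjusted p = 0.0552) or 3 (adjusted p = 0.0846). Over all genes, 33.0% were called higher and 32.6% lower. Of 9 other measured genes on the list of heat shock factor targets, further factors and stress genes, 3 rose, 4 fell and 2 did not pass, with a median of -0.13. Those past 0.5 on the log2 scale were ATF3, a stress-induced transcription factor (87.7 ± 3.05 to 126 ± 1.05 RPKM, SD, n = 4, log2 fold change 0.52), and the heat shock factor HSF4 (1.13 ± 0.114 to 2.22 ± 0.0753 RPKM, SD, n = 4, log2 fold change 0.60, adjusted p = 3.22e-06).

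Heat shock factors bind repeats of the letters GAA in alternating orientation, called heat shock elements. The promoter windows of RefSeq (GRCh38.p14, 250 bases before to 50 after each start) were searched for GAANNTTCNNGAA and, on the other strand, TTCNNGAANNTTC, which may overlap each other. A window was found for 70 of the 82 genes, and 20 of these have several starts. The element stood in a window of 51 of the 10651 genes with a window (0.479%) and of 6 chaperone genes. The matches are shown because the 6 genes include HSPA8 and also genes that fell. In each stretch the capitals mark the element.
HSPA8, chr11:123062348-123062372, minus strand: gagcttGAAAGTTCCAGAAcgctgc
HSPA8, chr11:123062173-123062197, minus strand: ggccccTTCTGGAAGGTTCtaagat
DNAJA1, chr9:33025270-33025294, plus strand: cgggcgGAACTTTCCAGAAcgctcg
HSP90AA1, chr14:102087090-102087162, minus strand: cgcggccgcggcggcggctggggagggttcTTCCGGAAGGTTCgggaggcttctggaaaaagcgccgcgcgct
HSP90AB1, chr6:44247772-44247796, plus strand: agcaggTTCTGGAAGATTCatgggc
HSPD1, chr2:197500064-197500088, minus strand: attTTCTGGAAAGTTCTGGAAccga
DNAJB6, chr7:157336843-157336915, plus strand: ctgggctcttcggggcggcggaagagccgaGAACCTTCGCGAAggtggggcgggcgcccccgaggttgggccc
The elements begin 230 and 55 bases before a start of HSPA8, 88 before one of HSP90AA1, 165 before one of HSP90AB1 and 131 before one of DNAJB6. In HSPD1 the run in capitals holds 2 overlapping elements, 245 and 240 bases before a start, and in DNAJA1 the element begins 3 bases after the start. The HSPD1 stretch also lies shortly before the annotated span of HSPE1 (chr2:197500140-197503449, plus strand), which is not among the 6. For 12 of the 82 genes no window was found, and other starts were not searched. Genes outside the 6 are therefore not shown to lack the element. The HSP90AB1 window holds 2 elements, of which 1 is shown. For that window, no GENCODE transcript of the gene was found to open at the start used. In the GENCODE annotation the starts used for HSPA8, HSP90AA1, HSP90AB1, HSPD1 and DNAJB6 lie inside the span of the gene, and the stretches of HSPA8, DNAJA1 and HSPD1 overlap annotated exons of these genes. Of the 6 genes, HSPA8 and DNAJA1 rose, HSP90AB1 and HSPD1 fell, and HSP90AA1 and DNAJB6 did not pass the test. A match describes these letters only, and no binding was measured here.

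In the HSP70 family 5 of 9 genes rose and 2 fell, against 33.0% and 32.6% of all genes. The family had a median log2 fold change of 0.17. Apart from HSPA8 and HSPA1B, the risers were HSPA2, HSPA13 and HSPA12A. HSPA2, an HSP70 protein best known from the testis, measured 0.441, 0.514, 0.627 and 0.583 RPKM in the controls and 1.31, 1.28, 1.26 and 1.16 RPKM after SB. It was low everywhere, with 52 to 149 reads per library, yet the treated values were all above the controls, and the mean RPKM rose 2.31-fold. The log2 fold change was 0.55 with the pseudocount of 1 (SE 0.045, adjusted p = 6.44e-06) and 1.08 with 0.1. HSPA13, an HSP70 relative of the endoplasmic reticulum, rose from 32.6 ± 3.43 to 42.1 ± 0.991 RPKM (SD, n = 4, log2 fold change 0.36, adjusted p = 0.000765). HSPA12A, a distant relative, rose from 8.06 ± 0.401 to 9.44 ± 0.174 RPKM (SD, n = 4, log2 fold change 0.20, adjusted p = 0.00129). HSPA12B, at 0.247 ± 0.0315 and 0.331 ± 0.0868 RPKM (SD, n = 4), did not pass (adjusted p = 0.12).

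The genes of the family that fell serve mitochondria and the ribosome. HSPA9, or mortalin, the HSP70 of mitochondria that pulls proteins through the inner membrane, measured 217, 191, 197 and 191 RPKM in the controls and 121, 119, 121 and 124 RPKM after SB. The SB-treated replicates were nearly alike and far below every control, and HSPA9 fell by 0.71 on the log2 scale (SE 0.046, adjusted p = 1.69e-06). HSPA14 and the J protein DNAJC2 form a complex at the ribosome that receives new chains. HSPA14 fell from 34.7 ± 1.34 to 28.5 ± 0.375 RPKM (SD, n = 4, log2 fold change -0.28, adjusted p = 0.000117). DNAJC2 measured 45.4, 30.6, 32.0 and 30.1 RPKM in the controls and 23.5, 21.5, 23.3 and 22.6 RPKM after SB, a log2 fold change of -0.56 (SE 0.114, adjusted p = 0.00175). Control replicate 1 lay far above the other DNAJC2 controls, and the log2 fold change was -0.43 (adjusted p = 5.88e-06) without it.

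All 3 HSP110 genes, whose proteins exchange the nucleotide of HSP70, were called lower. Over all genes 32.6% were called lower, and 77.5% of those with a mean of at least 100 RPKM, HSPA4 among them. HSPA4 measured 168, 141, 145 and 142 RPKM in the controls and 86.7, 84.0, 84.6 and 86.1 RPKM after SB. No SB-treated value came near a control, and its log2 fold change of -0.79 (SE 0.055, adjusted p = 2.36e-06) was the most negative among the 82 genes. HSPA4L fell from 28.3 ± 2.03 to 22.5 ± 0.524 RPKM (SD, n = 4, log2 fold change -0.32, adjusted p = 0.000371). HSPH1 had the weakest call of the family: its values ran from 24.1 to 27.1 RPKM in the controls and from 22.9 to 24.1 RPKM after SB, and they overlapped. Its log2 fold change of -0.11 (adjusted p = 0.0473) passed narrowly and was -0.00 (adjusted p = 0.935) without TMM factors. The HSPH1 call was also lost with a pseudocount of 0.1 (adjusted p = 0.0652) and without control replicate 3 or 4 or any 1 SB-treated replicate (adjusted p between 0.0557 and 0.123).

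The BAG proteins, which also act on the nucleotide state of HSP70, were mixed. BAG1 rose from 8.11 ± 0.226 to 9.48 ± 0.162 RPKM (SD, n = 4, log2 fold change 0.20, adjusted p = 0.00048). BAG2, an inhibitor of the ubiquitin ligase STUB1, fell from 17.7 ± 1.19 to 14.7 ± 0.547 RPKM (SD, n = 4, log2 fold change -0.24, adjusted p = 0.00181). BAG4 fell by 0.22 on the log2 scale (adjusted p = 0.000248), and BAG5 by 0.14 (adjusted p = 0.0135), though the BAG5 call was lost without TMM factors (adjusted p = 0.403). BAG6, which guards hydrophobic proteins on their way to membranes, did not pass (log2 fold change -0.10, adjusted p = 0.207), and it was called lower without control replicate 1 (-0.17, adjusted p = 0.000465). HSPBP1, another exchange factor, did not pass either (16.1 ± 1.95 and 15.1 ± 0.950 RPKM, SD, n = 4, adjusted p = 0.419), and it was called lower without control replicate 1 (-0.16, adjusted p = 0.00712). Of the small heat shock proteins, HSPB8, which works with BAG3 in the removal of misfolded proteins, measured 22.4, 24.3, 22.2 and 23.9 RPKM in the controls and 32.4, 34.4, 33.9 and 33.6 RPKM after SB. The groups were clearly separate, and HSPB8 rose by a log2 fold change of 0.52 (SE 0.041, adjusted p = 5.18e-06) while its partner BAG3 did not pass the test.

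HSP90AB1 and HSP90AA1 had the highest RPKM of the 82 genes in both groups. HSP90AB1, the constitutive cytosolic form, measured 616, 646, 659 and 651 RPKM in the controls and 477, 468, 478 and 481 RPKM after SB. Every SB-treated replicate was lower than every control, and HSP90AB1 fell by 0.43 on the log2 scale (SE 0.034, adjusted p = 4.81e-06). HSP90AA1, the form that stress induces, measured 699, 571, 605 and 579 RPKM in the controls and 591, 559, 572 and 582 RPKM after SB. These groups overlapped, and the log2 fold change was -0.09 (adjusted p = 0.238) and 0.02 without TMM factors. HSP90B1, the form of the endoplasmic reticulum, fell from 283 ± 27.1 to 240 ± 4.71 RPKM (SD, n = 4, log2 fold change -0.23, adjusted p = 0.00849), and this call was lost without TMM factors (-0.12, adjusted p = 0.087). The pseudogene HSP90AB4P stayed near 0.302 and 0.364 RPKM with 29 to 58 reads per library (adjusted p = 0.187).

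The helpers of HSP90 mostly fell. STIP1, which bridges HSP70 and HSP90, measured 141, 131, 133 and 129 RPKM in the controls and 102, 100, 101 and 99.7 RPKM after SB. The groups were well apart, with a log2 fold change of -0.40 (SE 0.036, adjusted p = 9.46e-06). Over all genes, 33.0% were called higher and 32.6% lower, and at a mean of at least 100 RPKM 6.41% and 77.5%. Of 23 further HSP90 co-chaperones, CDC37 and RUVBL1 at that level among them, 19 fell, 1 rose and 3 did not pass. The median log2 fold change of these co-chaperones was -0.35. Those past 0.5 on the log2 scale were RUVBL1, an ATPase of the R2TP complex (132 ± 3.56 to 90.4 ± 0.934 RPKM, SD, n = 4), CACYBP (89.9 ± 12.8 to 61.1 ± 1.84 RPKM, SD, n = 4) and CDC37, the adaptor for kinases (149 ± 7.45 to 105 ± 2.83 RPKM, SD, n = 4). TSC1, a large co-chaperone better known from growth control, was the gene that rose (7.48 ± 0.459 to 9.99 ± 0.0564 RPKM, SD, n = 4, log2 fold change 0.38).

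The cytosolic chaperonin is a barrel of 8 different subunits in each ring, each from a gene with a mean of at least 100 RPKM. Among all 515 genes at that level, 77.5% were called lower, with a median log2 fold change of -0.30. The genes of all 8 subunits fell as well. Their log2 fold changes were -0.66 for CCT8, -0.52 for CCT5, -0.49 for TCP1, -0.48 for CCT4, -0.40 for CCT6A, -0.39 for CCT7, -0.36 for CCT2 and -0.13 for CCT3, with SE between 0.031 and 0.052. CCT8 measured 299, 269, 276 and 268 RPKM in the controls and 177, 173, 173 and 177 RPKM after SB. CCT3 measured 357, 364, 371 and 368 RPKM in the controls and 339, 332, 331 and 334 RPKM after SB. The groups were apart in both genes, far for CCT8 (adjusted p = 1.44e-06) and narrowly for CCT3 (adjusted p = 0.00479). For CCT3 the call was lost without TMM factors (-0.02, adjusted p = 0.545), where the other 7 subunit genes were still called lower.

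The subunits stand in equal number in the ring, but the RNA levels of their genes per length differed. CCT3 was the highest in both groups, at 365 ± 6.11 and 334 ± 3.29 RPKM (SD, n = 4), and CCT5 the lowest, at 150 ± 10.5 and 104 ± 1.38 RPKM (SD, n = 4). The ratio of their means was 2.44 in the controls and 3.22 after SB, which is given as a description with no test. Between them in the controls stood CCT4 (355 ± 4.66 RPKM), CCT7 (335 ± 11.1 RPKM), TCP1 (283 ± 11.5 RPKM), CCT8 (278 ± 14.4 RPKM), CCT2 (192 ± 7.005 RPKM) and CCT6A (151 ± 10.96 RPKM) (SD, n = 4 each). TCP1 and CCT8, and CCT6A and CCT5, were each within the SD of the other in the controls. After SB the order was CCT3, CCT7 (256 ± 1.57 RPKM), CCT4 (254 ± 3.25 RPKM), TCP1 (201 ± 4.73 RPKM), CCT8 (175 ± 2.50 RPKM), CCT2 (149 ± 3.15 RPKM), CCT6A (114 ± 3.41 RPKM) and CCT5 (SD, n = 4 each), and CCT7 and CCT4 were within the SD of the latter. The 8 genes took 0.498 ± 0.00611% of the reads in the controls and 0.402 ± 0.00377% after SB (SD, n = 4).

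**Figure D3:**
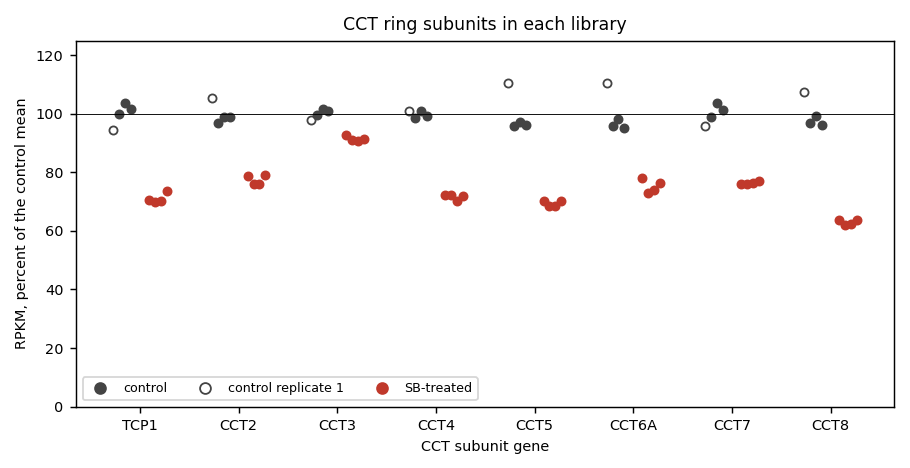
RPKM of the 8 CCT ring genes (x axis) in each library as a percent of the gene's control mean (y axis, from 0). Every SB-treated point lies below the control points of its gene, nearest for CCT3, and the 4 SB-treated replicates lie close together.

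CCT6B, a form of the zeta subunit best known from the testis, went the other way. It rose from 2.12 ± 0.232 to 2.76 ± 0.141 RPKM (SD, n = 4, log2 fold change 0.27, adjusted p = 0.00164), with 136 to 249 reads per library. The pseudogenes CCT6P1 (3.65 ± 0.420 to 2.79 ± 0.223 RPKM, SD, n = 4, log2 fold change -0.29, adjusted p = 0.00325) and CCT6P3 (3.22 ± 0.324 and 3.25 ± 0.115 RPKM, SD, n = 4, adjusted p = 0.857) resemble CCT6A, so their reads are uncertain. Of 9 helpers that deliver clients to CCT, prefoldin subunits among them, 7 fell, 1 rose and 1 did not pass, with a median log2 fold change of -0.38. Over all genes, 33.0% were called higher and 32.6% lower. TXNDC9 (18 ± 2.22 to 11.5 ± 0.619 RPKM, SD, n = 4, log2 fold change -0.60) and PFDN2 (97.2 ± 2.05 to 66.4 ± 1.79 RPKM, SD, n = 4, log2 fold change -0.54) fell by over 0.5, and PFDN5 rose by 0.17.

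In mitochondria the chaperonin HSPD1 fell along with HSPA9. HSPD1 measured 601, 515, 540 and 528 RPKM in the controls and 377, 355, 367 and 370 RPKM after SB, and its lid HSPE1 measured 48.6, 43.3, 45.9 and 43.0 RPKM and 37.4, 37.5, 38.5 and 38.5 RPKM. Neither gene overlapped between the groups. The log2 fold change was -0.57 for HSPD1 (SE 0.051, adjusted p = 1e-05) and -0.24 for HSPE1 (SE 0.044, adjusted p = 0.000848). The genes lie head to head on opposite strands, and in the annotation the span of HSPE1 (chr2:197500140-197503449) falls inside that of HSPD1 (chr2:197486584-197516737). The strand setting of the counting is not given in the sources used here.

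Of the 10 mitochondrial genes among the 82, 6 fell, 1 rose and 3 did not pass, with a median log2 fold change of -0.17. Over all genes, 33.0% were called higher and 32.6% lower. HSPA9 and HSPD1 had a mean of at least 100 RPKM, where 77.5% of all genes were called lower. DNAJA3, the J partner of HSPA9, fell from 26.6 ± 0.636 to 21.6 ± 0.678 RPKM (SD, n = 4, log2 fold change -0.29, adjusted p = 8.43e-05). DNAJC19, a J protein of the import motor, measured 21.8, 17.3, 19.0 and 17.4 RPKM in the controls and 14.1, 14.5, 13.7 and 13.9 RPKM after SB, with a log2 fold change of -0.39 (SE 0.067, adjusted p = 0.000637). Its groups were apart, and control replicate 1 was again the highest. DNAJC15 was at 0.512 ± 0.0246 and 0.416 ± 0.0465 RPKM (SD, n = 4), and its call (adjusted p = 0.0378) was lost without TMM factors (adjusted p = 0.146) or without control replicate 2 or 3 or SB-treated replicate 2, 3 or 4 (adjusted p between 0.0694 and 0.112). DNAJC30, a partner of the ATP synthase, was the riser (log2 fold change 0.11, adjusted p = 0.018), and its call was lost without SB-treated replicate 3 (adjusted p = 0.0563) or 4 (adjusted p = 0.0512). Among 9 mitochondrial partners outside the families, 7 fell, 1 rose and 1 did not pass, against the same shares of all genes. The median log2 fold change of these partners was -0.38. GRPEL1, the nucleotide exchange factor of HSPA9, fell from 56.1 ± 0.706 to 33.0 ± 0.558 RPKM (SD, n = 4, log2 fold change -0.75, adjusted p = 1.94e-07), and CLPX, an unfoldase, from 28.8 ± 2.29 to 19.96 ± 0.438 RPKM (SD, n = 4, log2 fold change -0.51), whereas the protease LONP1 rose by 0.18.

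In the endoplasmic reticulum most chaperone genes did not pass the test. Of 9 residents 1 rose (HSPA13), 2 fell (HSP90B1 and DNAJC1) and 6 were not called, with a median log2 fold change of -0.00. Over all genes, 33.0% were called higher and 32.6% lower, 65.6% in either direction. Without TMM factors 4 residents were called higher and 0 lower, against 43.0% and 23.1% of all genes. DNAJC1 (-0.11, adjusted p = 0.133) and HSP90B1 were then no longer called. HSPA5, or BiP, the HSP70 of this compartment, measured 128, 124, 128 and 123 RPKM in the controls and 133, 130, 131 and 131 RPKM after SB. The groups were apart by little, and the log2 fold change was 0.06 (SE 0.031, adjusted p = 0.116). DNAJB9, DNAJB11, DNAJC3, DNAJC10 and DNAJC25, J proteins that serve BiP, had log2 fold changes of 0.08, -0.15, 0.07, -0.00 and -0.12. Without control replicate 1, 4 residents were called higher (HSPA13, HSPA5, DNAJB9 and DNAJC3) and 2 lower, against 37.6% and 37.9% of all genes. The ER stress element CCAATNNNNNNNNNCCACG (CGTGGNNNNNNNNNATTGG on the other strand) stood in a promoter window of 16 genes (0.150%), with HSPA5 and HSP90B1 as the chaperone genes. It is shown in capitals for both, 66 and 194 bases before a start, and the HSP90B1 window holds 2 elements. The start used for HSP90B1 lies inside the annotated span of the gene, and its stretch overlaps an exon.
HSPA5, chr9:125241388-125241412, minus strand: tcaCCAATCGGCGGCCTCCACGacg
HSP90B1, chr12:103930213-103930237, plus strand: tgaCCAATCGGAAGGAGCCACGctt
HSPA5 did not pass the test and HSP90B1 was called lower.

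The J domain proteins choose the task of HSP70. Of their 40 genes 13 rose, 12 fell and 15 did not pass, shares near those of all genes, and without TMM factors 18 were called higher and 6 lower. In the DNAJA family, DNAJA1 rose, DNAJA3 fell and DNAJA2, a cytosolic J protein, did not pass (27.3 ± 2.86 and 26.0 ± 0.963 RPKM, SD, n = 4, adjusted p = 0.423). In the DNAJB family 5 of 10 rose and 0 fell by limma at an adjusted p below 0.05, against 33.0% and 32.6% of all genes. No DNAJB gene had a mean of at least 100 RPKM, where 77.5% of all genes were called lower. Below 5 RPKM that share was 17.1%. At an unadjusted p below 0.05, 0 had a lower value, and voom called 0 lower too. Without control replicate 1, 8 DNAJB genes were called higher, against 37.6% of all genes. Without TMM factors 9 were called higher and 0 lower, against 43.0% and 23.1% of all genes. Each of these counts of rises holds DNAJB13, which is also among the 10 genes with 0 falls, so none of the counts is read as support. DNAJB5, a relative of DNAJB1, measured 3.26, 3.45, 3.01 and 3.64 RPKM in the controls and 6.55, 6.58, 6.84 and 6.37 RPKM after SB. The treated values were all far above the controls, 1.97-fold in the mean (log2 fold change 0.81, SE 0.048, adjusted p = 1.14e-06). DNAJB4, of the same branch, rose from 7.28 ± 0.737 to 8.97 ± 0.411 RPKM (SD, n = 4, log2 fold change 0.27, adjusted p = 0.00329). DNAJB13, a protein of the axoneme of cilia and sperm, measured 0.163, 0.271, 0.149 and 0.183 RPKM in the controls and 0.4996, 0.671, 0.567 and 0.585 RPKM after SB. Its mean RPKM was 3.03-fold higher after SB, on 10 to 51 reads per library. The controls reached at most 0.492 CPM and the SB-treated replicates 0.969 to 1.31 CPM, so the gene passed the filter only where it was high, and its difference is a description. The log2 fold change was 0.41 with the pseudocount of 1 (adjusted p = 4.41e-05) and 1.59 by voom on the recovered reads. DNAJB6, which keeps polyglutamine proteins from aggregating, did not pass (log2 fold change 0.08, adjusted p = 0.257). Control replicate 1 of DNAJB6, at 53.5 RPKM, lay above the SB-treated range of 48.9 to 49.5 RPKM, the other controls at 44.01 to 44.4 RPKM lay below it, and without that replicate the gene was called higher (0.15, adjusted p = 0.000223).

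In the DNAJC family 7 of 27 genes rose, 11 fell and 9 did not pass, and without TMM factors 8 were called higher and 5 lower. Over all genes, 33.0% were called higher and 32.6% lower, and 43.0% and 23.1% without TMM factors. DNAJC5, the cysteine string protein of synaptic and secretory vesicles, measured 14.6, 17.7, 17.8 and 17.8 RPKM in the controls and 21.3, 22.1, 22.7 and 21.8 RPKM after SB. Here control replicate 1 was the lowest library, the groups were apart, and the log2 fold change was 0.36 (SE 0.061, adjusted p = 0.000622). Its paralog DNAJC5G, at 0.348 ± 0.0835 and 0.726 ± 0.101 RPKM (SD, n = 4) and 19 to 72 reads per library, was higher after SB as well, but with controls of at most 0.900 CPM it too passed the filter only through the SB-treated group. DNAJC27, a small GTPase with a J domain, rose from 2.15 ± 0.135 to 2.81 ± 0.0644 RPKM (SD, n = 4, log2 fold change 0.28, adjusted p = 0.000173). The strongest falls of the family included 2 J proteins of the splicing machinery. DNAJC8 measured 193, 148, 155 and 148 RPKM in the controls and 107, 103, 105 and 105 RPKM after SB, and DNAJC17 measured 15, 14.3, 14.3 and 13.96 RPKM and 10.4, 10.4, 9.61 and 9.78 RPKM. Each was lower in every SB-treated replicate than in any control. DNAJC8 fell by 0.60 on the log2 scale (SE 0.077, adjusted p = 0.000102) and DNAJC17 by 0.48 (SE 0.039, adjusted p = 6.56e-06).

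The direction of change went with the level of expression, for the chaperones as for other genes. Of the 19 chaperone genes with a mean of at least 100 RPKM, 1 rose (HSPA8), 15 fell and 3 did not pass, with a median log2 fold change of -0.40. Of all 515 genes at that level, 6.41% rose and 77.5% fell, with a median of -0.30, so falls were the rule at this level among all genes. Of the 16 chaperone genes with a mean below 5 RPKM, 8 were called higher and 3 lower, against 44.1% and 17.1% of all genes at that level. Without the 4 genes that passed the filter only through the SB-treated group and without HSPA1B, whose length is in doubt (below 5 RPKM as scaled), 11 were left, with 5 higher and 3 lower. The 82 genes together took 1.75 ± 0.0610% of the reads in the controls and 1.58 ± 0.0155% after SB (SD, n = 4), and the HSP70 family 0.184 ± 0.00752% and 0.208 ± 0.00251% (SD, n = 4). The family share does not describe each of its genes, of which 5 were called higher and 2 lower. Mean reads per library on HSPA8 went from 11081.2 in the controls to 25823.5 after SB, and those on HSPA9 from 27705.2 to 17790.5.

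**Figure D4:**
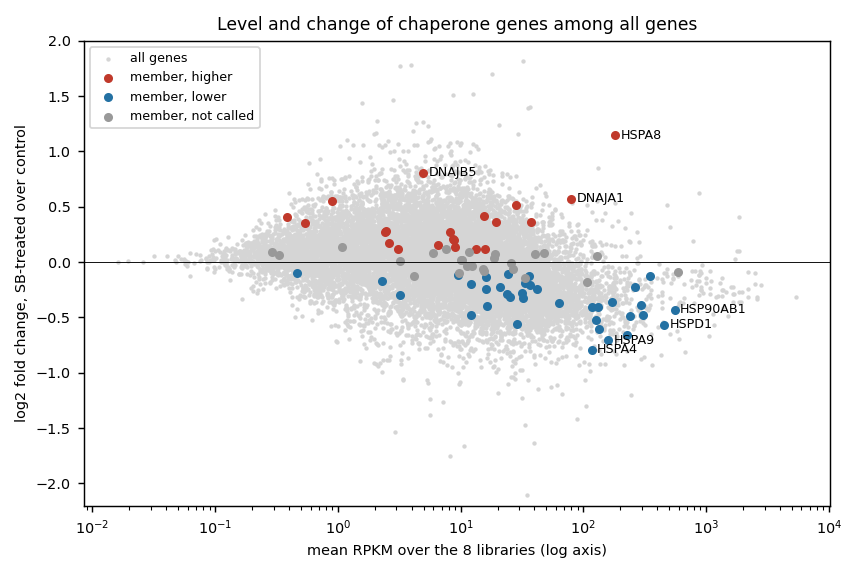
Mean RPKM over the 8 libraries (x axis, log axis) against the log2 fold change on the log2(RPKM + 1) scale (y axis) for all genes in light grey and the 82 chaperone genes in colour by their call. HSPA8 stands above zero at a level where other genes mostly lie below it.

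Within each library, the balance between related forms changed. The ratio of HSP90AA1 to HSP90AB1, the inducible over the constitutive form, was 1.13, 0.885, 0.918 and 0.889 in the controls and 1.24, 1.19, 1.20 and 1.21 after SB. Control replicate 1 lay near the SB-treated values, and the ratio was higher in all 4 of those by a log2 difference of 0.35. The ratio of HSPA1B to HSPA8 ran the other way, at 0.0172, 0.0244, 0.0224 and 0.0217 in the controls and 0.0109, 0.0120, 0.0114 and 0.0109 after SB, a log2 difference of -0.91. This ratio is not one of molecules, because the length by which HSPA1B was scaled, 12601 bases, is 5.01 times the 2517 exon bases of its annotation, and the reason was not tested. The same held for BAG6 (4.39 times) and HSPA14 (2.50 times), whose levels are therefore not set against other genes. The ratio of HSPE1 to HSPD1 rose from a range of 0.0809 to 0.0850 to a range of 0.0992 to 0.106, a log2 difference of 0.32. Because HSPE1 lies inside the annotated span of HSPD1 and the strand setting is not given, it is not read as a ratio of molecules either. For each of the 3 ratios the groups did not overlap, and the exact permutation test of 4 against 4, two-sided, gave p = 0.0286, also after adjustment over the 3 ratios, which is the smallest p this design allows.

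**Figure D5:**
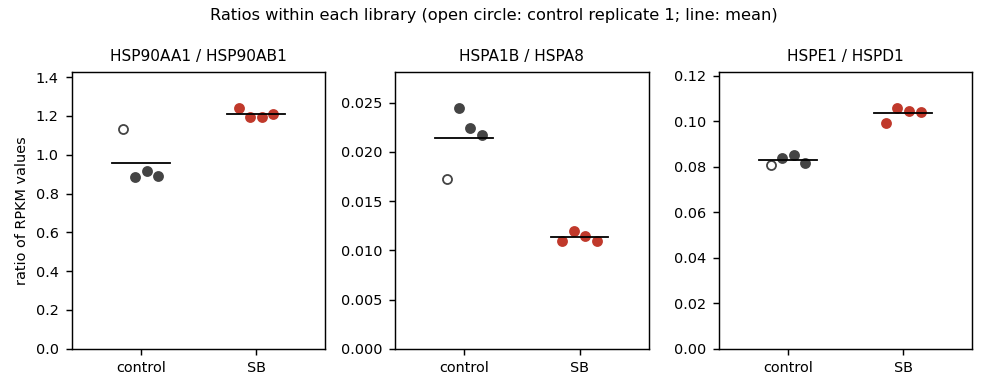
Ratio of RPKM values (y axes, from 0) in each library of both groups (x axis) for 3 pairs of genes, with the mean as a line and control replicate 1 as an open circle. The ratios HSP90AA1 to HSP90AB1 and HSPE1 to HSPD1 are higher after SB and the ratio HSPA1B to HSPA8 is lower, with no overlap between the groups.

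HSPB11, a subunit of the transport complex of cilia despite its name, measured 45.6, 32.9, 33.7 and 31.2 RPKM in the controls and 25.6, 28.4, 26.0 and 32.5 RPKM after SB. SB-treated replicate 4 lay within the control range. The log2 fold change was -0.33 (SE 0.117, adjusted p = 0.0313), and -0.21 without control replicate 1. The HSPB11 call was lost without TMM factors (adjusted p = 0.107) and without SB-treated replicate 1, 2 or 3 (adjusted p between 0.0581 and 0.0831). Over all genes, 33.0% were called higher and 32.6% lower. The other 17 genes, 3 of the DNAJB and 14 of the DNAJC family, had log2 fold changes between -0.37 and 0.15, with 4 called higher, 5 lower and 8 not called. Among them DNAJC6, or auxilin, which recruits HSC70 to clathrin coats, had a log2 fold change of -0.12 (adjusted p = 0.0392), and its call was lost without TMM factors (-0.02, adjusted p = 0.634). The calls of DNAJB12 (higher), DNAJC6 and DNAJC21 (lower) were also lost when single libraries were left out, with adjusted p up to 0.108.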

How the data were processed

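RNA of 4 control and 4 SB-treated replicates was sequenced by the authors from TruSeq Stranded Total libraries. Reads were mapped to hg38 with TopHat 2.1.0 and counted with featureCounts 1.5.0, per the labels and the paper, and genes above 1 CPM in at least 2 samples were kept. What the authors deposited is RPKM, for each gene in each library, with library sizes scaled by TMM in edgeR 3.16.5. The log2 fold change, mean log2 CPM, p-value and FDR in the authors' deposited table were not used.

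RPKM values were compared with limma 3.58.1 (R 4.3.3) on log2(RPKM + 1), with no covariate and Benjamini-Hochberg adjustment over 14526 genes. Ratios were compared with exact permutation tests (SciPy 1.17.1). The limma fit was tested on simulated data. Dividing the RPKM values by what 1 read is worth gave whole reads (tolerance 0.05) for 100% of the genes, used for depth and for voom. Positions are from GENCODE release 44.

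The members and lists were chosen with earlier results of these data known. Named are all members of the HSP90, HSP70, HSP110, small HSP, HSPD1 and HSPE1, CCT, BAG and regulator classes, the DNAJA genes, DNAJB1, DNAJB6, and DNAJB and DNAJC genes among the 15 largest called rises or falls. Other named members belong to the compartment lists, apart from DNAJB12, DNAJC6, DNAJC12, DNAJC13, DNAJC21 and DNAJC24, named after their values were seen. The alternatives were a pseudocount of 0.1, a minimum mean of 1 RPKM, median-of-ratios scaling, no TMM factors, an intensity trend, the replicate number as a block, voom, and leaving out each sample.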

Additional observations from a re-analysis of the deposited data

Results flagged for a closer look

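In each group of 4 libraries, the gap between the highest or lowest library and its neighbour was divided by the range of the group on the log2(RPKM + 1) scale, and a share above Dixon's critical value for 4 values was taken as a library far from the rest. This held for 20 of 164 groups, where chance gives about 8.2 (1 in 20). Control replicate 1 was that library in 15 of them, as the highest in 12 and the lowest in 3.

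It was the highest control, with the share of the range in brackets, for HSPA8 (0.967), DNAJB6 (0.960), DNAJA2 (0.938), DNAJC24 (0.924), CCT5 (0.898), DNAJC25 (0.897), DNAJB4 (0.854), DNAJC2 (0.850), HSPA4 (0.843), DNAJC27 (0.833), DNAJC21 (0.831) and DNAJC28 (0.830). It was the lowest for DNAJC5 (0.961), HSF1 (0.953) and HSPBP1 (0.869). HSPA8, CCT5, DNAJB4, DNAJC2, HSPA4, DNAJC27, DNAJC21 and DNAJC5 kept their call and direction without this library.

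Among the SB-treated replicates, replicate 1 was lowest for DNAJB1 (0.958) and highest for DNAJC24 (0.846), replicate 2 was highest for DNAJB12 (0.891), replicate 3 was lowest for CCT4 (0.834), and replicate 4 was lowest for DNAJC12 (0.851). DNAJB1 and CCT4 kept their call without the replicate named, and DNAJB12 did not (adjusted p = 0.0988).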

How the results depend on the processing

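Of the 57 calls, 49 were kept whichever library was left out, and those lost in some case were DNAJB12, DNAJC6, DNAJC15, DNAJC21, DNAJC30, HSF2, HSPB11 and HSPH1. Depending on the library left out, 19 to 28 members were called higher and 30 to 40 lower. An intensity trend, median-of-ratios scaling, a minimum mean of 1 RPKM (76 members left) and voom changed no member's call, and a pseudocount of 0.1 lost HSPH1. Without TMM factors 12 calls were lost, all of falls, and 7 were gained.

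No called member changed direction under these alternatives. Uncalled members that did were, without TMM factors, DNAJA2 (0.0394), DNAJC11 (0.0381), DNAJC4 (0.0628), DNAJC13 (0.0650), DNAJC10 (0.0966), HSP90AA1 (0.0183) and HSPBP1 (0.0207), all log2 fold changes. With single libraries left out, DNAJA2 lay between -0.0875 and 0.00749, DNAJC13 between -0.0545 and 0.00284, CCT6P3 between -0.0251 and 0.0471, DNAJC24 between -0.0149 and 0.113, DNAJC10 between -0.0342 and 0.0601, DNAJC4 between -0.0740 and 0.0198, DNAJC12 between -0.0252 and 0.0615, and HSF1 between -0.0204 and 0.115.

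Same-numbered replicates deviated together with correlations from -0.160 to 0.380, and 2 of 4 SB-treated replicates correlated best with their own number, so the numbers were not taken as pairs. With the replicate block 21 members were higher and 35 lower. DNAJC6 and DNAJC15 lost their call and HSPB1 gained one. Voom with the block lost DNAJC15 and DNAJC30 and gained HSPB1. In the paired sign-flip test the log2 differences of the ratios stayed 0.35 for HSP90AA1 to HSP90AB1, -0.91 for HSPA1B to HSPA8 and 0.32 for HSPE1 to HSPD1, with an exact p of 0.125, the smallest that 4 pairs allow. Leaving out 1 library, they lay from 0.31 to 0.43, from -1.01 to -0.85 and from 0.31 to 0.34, with an exact p of 0.0571, the smallest that 3 against 4 allow.

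Depth limits genes with few reads, DNAJB13 (10 to 51 per library), DNAJC5G (19 to 72) and HSPA12B (26 to 66) above all.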
